A study of Homo sapiens with 8 samples.

Results

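Glycolysis and hypoxia genes were described in JVM13 cells in which cyclin D1 had been induced. A list of 38 genes was taken: glucose and lactate transporters, the enzymes from hexokinase to lactate dehydrogenase, regulators of glycolytic flux, the oxygen-sensing pathway and targets of the hypoxia-inducible factors (HIF). A gene counted as measured where a probe set of the array was annotated to it alone, and its brightest such probe set, averaged over all arrays, stood for it. By this rule 34 of the 38 genes were measured, out of 18231 genes on the array. All 5 probe sets of SLC2A3, a glucose transporter, are also annotated to its near copy SLC2A14 and did not meet the rule. SLC16A1 and SLC16A3, lactate transporters, and CA9, a carbonic anhydrase, were not analysed here.

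JVM13, an established B-cell line, comes from a human prolymphocytic leukaemia. A vector induced by doxycycline held the T286A form of cyclin D1 (n = 3 arrays), wild-type cyclin D1 (n = 3) or no insert (empty vector, n = 2), and every group, the empty vector included, was given 0.1 µg/mL doxycycline. T286A replaces a threonine whose phosphorylation precedes export of cyclin D1 from the nucleus and its degradation, so that the protein is more stable. The labels do not give the number of independently made populations per construct, the length of induction, or whether replicates were separate cultures, so p-values measure the spread between these arrays, which may be technical. They name no low-oxygen treatment.

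Glycolysis converts glucose to pyruvate and, through lactate dehydrogenase, to lactate, and dividing lymphoid cells use it for energy and for building blocks. HIF is a pair of transcription factor subunits. While oxygen is present, prolyl hydroxylases of the EGLN family mark its alpha subunit, such as HIF1A, for destruction, and when oxygen is low the subunit accumulates and raises transcription of most glycolytic enzymes, of regulators such as PFKFB4 and PDK1, and of genes outside glycolysis such as BNIP3, VEGFA and ADM.

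The constructs and the cell type were checked first. CCND1, which encodes cyclin D1, had log2 expression values of 11.25, 10.86 and 10.95 in T286A arrays, 10.98, 11.13 and 11.07 in wild-type arrays, and 5.25 and 4.98 in empty vector arrays. Both constructs therefore carried the transcript, and the T286A arrays differed from the wild-type arrays by -0.04 (95% interval -0.31 to 0.22, limma adjusted p = 0.902). All 6 measured B-cell markers lay at or above the median level of all genes (5.94), and MS4A1 had the highest mean, 13.33. T and NK cell markers lay below that level in 6 of 6, myeloid markers in 4 of 5 (ITGAM averaged 7.61) and epithelial and stromal markers in 4 of 5 (PECAM1 averaged 8.26). One marker was called in any comparison: CD22 was 0.40 lower in wild-type than in empty vector arrays (adjusted p = 0.0498). Array medians lay between 5.47 and 5.62, and wild-type replicate 2 stood apart, with a limma array weight of 0.513 against 0.850 to 1.44 in the other arrays. Any part of these differences in the results below was not tested, and values without that array are given where they change a call.

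Values below are log2 expression after robust multi-array averaging, and a difference of 1 is a doubling. The averaging equalises the arrays, so each difference is relative to the other genes. A change in the number of cells or in total RNA per cell is not seen, and absolute levels per cell are not known. Calls rest on limma's two-sided test, fitted to all 8 arrays, with an adjusted p (Benjamini-Hochberg, over the 18231 genes) under 0.05. Differences are given ± SE.

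Promoters of 4 members show where a HIF-binding core can stand in genes that changed and in a glycolytic gene that did not. The windows run from 250 bases before to 50 bases after the start annotated by RefSeq on GRCh38.p14, written 5′ to 3′ on the gene's strand, and capitals mark the letters ACGTG or GCGTG on either strand (CACGTG holds ACGTG on both strands and counts once as a run). PFKFB4 (chr3:48556754-48557053, minus strand), ALDOC (chr17:28576846-28577145, minus strand) and BNIP3 (chr10:131981874-131982173, minus strand) were called between the constructs, and PGK1 (chrX:78103998-78104297, plus strand), which encodes phosphoglycerate kinase, was not.
PFKFB4: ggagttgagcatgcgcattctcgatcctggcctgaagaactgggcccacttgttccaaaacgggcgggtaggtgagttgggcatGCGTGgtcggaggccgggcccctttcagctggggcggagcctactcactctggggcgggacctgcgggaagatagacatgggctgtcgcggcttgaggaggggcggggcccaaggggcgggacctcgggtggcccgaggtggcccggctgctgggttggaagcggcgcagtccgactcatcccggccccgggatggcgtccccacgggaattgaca
ALDOC: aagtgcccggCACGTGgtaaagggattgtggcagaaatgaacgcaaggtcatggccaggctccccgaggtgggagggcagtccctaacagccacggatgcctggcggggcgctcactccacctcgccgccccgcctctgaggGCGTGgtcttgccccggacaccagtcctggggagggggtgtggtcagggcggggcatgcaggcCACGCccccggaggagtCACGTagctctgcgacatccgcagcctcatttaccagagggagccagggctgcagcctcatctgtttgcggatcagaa
BNIP3: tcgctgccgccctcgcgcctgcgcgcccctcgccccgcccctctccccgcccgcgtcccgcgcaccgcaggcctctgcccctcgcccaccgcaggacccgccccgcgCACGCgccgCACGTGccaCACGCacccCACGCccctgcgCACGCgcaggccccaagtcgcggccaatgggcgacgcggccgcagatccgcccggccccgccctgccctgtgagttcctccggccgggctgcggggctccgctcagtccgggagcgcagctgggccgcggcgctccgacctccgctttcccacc
PGK1: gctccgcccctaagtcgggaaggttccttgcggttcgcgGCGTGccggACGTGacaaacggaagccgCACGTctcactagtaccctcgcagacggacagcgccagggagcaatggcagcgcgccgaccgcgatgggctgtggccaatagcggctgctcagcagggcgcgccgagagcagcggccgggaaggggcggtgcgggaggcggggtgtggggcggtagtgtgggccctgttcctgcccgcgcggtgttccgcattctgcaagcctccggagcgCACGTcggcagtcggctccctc
The PFKFB4 window held 1 marked run, ALDOC 4, BNIP3 5 and PGK1 4. These 4 genes were picked with their calls known, so the counts cannot relate runs to differences. BNIP3L, also called between the constructs, was not among the members with a window. Over the members, 31 genes matched 55 promoter windows, of which 38 (69.1%) held at least 1 match, against 17012 of 35116 windows (48.4%) for all genes. The share was 62.2% of 37 windows for the core enzymes and 7 of 7 windows for 6 HIF targets outside glycolysis. Counted by gene, 16 of 17 core enzymes and 6 of 6 HIF targets had a match in some window, against 14318 of 27305 genes, so the lists differed little by this count. A match of letters is a description and not evidence of binding.

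Between the constructs, T286A against wild-type cyclin D1, 4 of the 34 members were higher in T286A cells: PFKFB4, ALDOC, BNIP3L and BNIP3. None was called lower. Of all genes, 0.987% were called in this comparison, 0.598% higher in T286A cells and 0.389% lower. At an unadjusted p under 0.05, 12 members were higher and 1 (ADM) was lower, against 7.16% and 6.46% of all genes. For genes at or above the median level these shares were 9.52% and 7.23%. Without wild-type replicate 2 the calls were ALDOC, PFKFB4 and BNIP3 higher and ADM lower. The median difference of the members was 0.08, against 0.00014 for all genes, and 27 members had positive and 7 negative differences. In 15 members every T286A array lay above every wild-type array and in 1 (ADM) every T286A array lay below, which is the case for 9.94% and 9.82% of all genes. Among genes at or above the median level, which 31 of the 34 members reached, it was the case for 14.1% and 12.6%.

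Against the empty vector, calls among the members were made with wild-type cyclin D1 and not with T286A. In wild-type against empty vector 3 members were called lower (ALDOC, PFKFB4 and BNIP3) and 0 higher, with 1.14% of all genes called lower, 0.603% called higher and 1.74% in all. The median difference of the members was -0.11 (0.0016 for all genes), and 27 of 34 differences were negative. In 14 members all wild-type arrays lay below both empty vector arrays, against 15.3% of all genes and 19.6% of genes at or above the median level. At an unadjusted p under 0.05, 12 members were lower and 1 (ADM) higher, against 7.42% and 6.08% of all genes. For genes at or above the median level these shares were 9.84% and 7.44%. Without wild-type replicate 2 ADM was called higher beside the same 3 calls. In T286A against empty vector 0 members were called by limma, with 0.532% of all genes called, 0.34% higher and 0.192% lower. At an unadjusted p under 0.05, 2 members (PFKFB4 and BNIP3L) were higher and 1 (PFKM) lower, against 5.95% and 6.15% of all genes, and the median was 0.02 (-0.0030 for all genes). The comparisons against the empty vector share its 2 arrays, and those between constructs share the construct's arrays, so their values are set side by side and not counted as separate evidence.

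**Figure D1:**
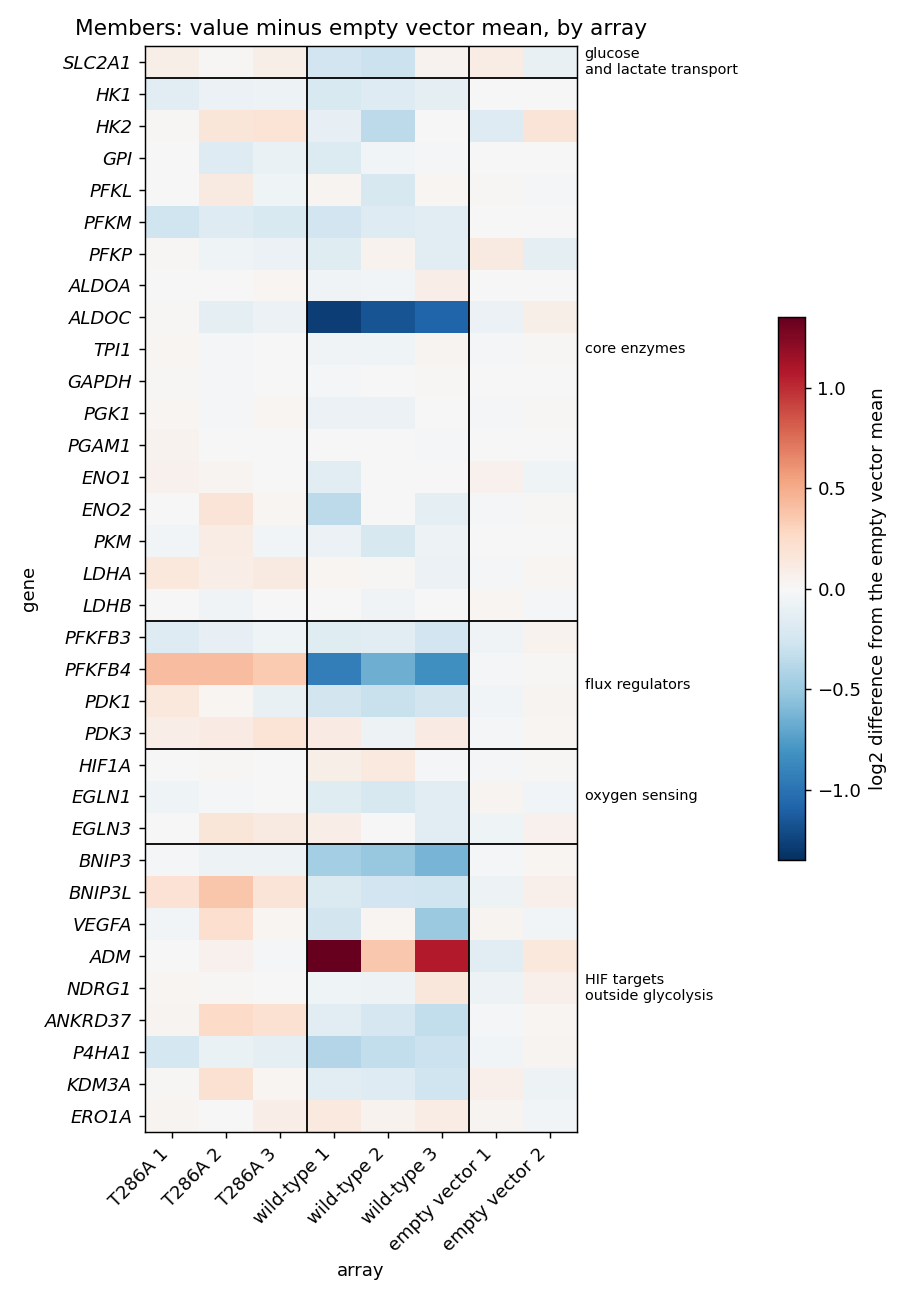
Log2 value of each of the 34 measured members (rows, by role) in each array (columns) minus the mean of the 2 empty vector arrays; red is higher and blue lower. ALDOC, PFKFB4 and BNIP3 were blue in all 3 wild-type arrays, ADM was red there, and most core enzymes stayed near white in every column.

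In the heat map of members by array ALDOC, PFKFB4 and ADM, which was not called, had the deepest colours. The roles differed in their medians. The median of the HIF targets outside glycolysis, each gene taken relative to its empty vector mean, was 0.02, 0.06 and 0.02 in the T286A arrays, against -0.15, -0.18 and -0.27 in the wild-type arrays. For the flux regulators the same medians were 0.12, 0.07 and 0.07 in T286A arrays and -0.21, -0.22 and -0.25 in wild-type arrays. For the core enzymes they were 0.01, -0.02 and -0.01 in T286A arrays and -0.08, -0.05 and -0.02 in wild-type arrays. Signal levels differed between the roles too. Among core enzymes GAPDH averaged 14.12 and LDHA 13.71, while BNIP3, the brightest of the HIF targets outside glycolysis, averaged 10.68. Any part of signal level in these medians was not tested.

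Glucose transport was represented by SLC2A1, the main glucose carrier of many dividing cells. It had 9.10, 9.03 and 9.10 in T286A arrays, 8.76, 8.73 and 9.07 in wild-type arrays, and 9.12 and 8.92 in empty vector arrays. Wild-type replicates 1 and 2 were the lowest, replicate 3 lay among the other groups, and the groups overlapped. T286A minus wild-type was 0.23 ± 0.101 (adjusted p = 0.376) and wild-type minus empty vector -0.17 ± 0.113 (adjusted p = 0.584), neither called. The 5 probe sets shared by SLC2A3 and SLC2A14 differed between T286A and wild-type arrays by 0.0054 to 0.71, with 0 called and a lowest adjusted p of 0.0799, and what each of the 2 genes contributes cannot be told apart.

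Of the 17 core enzymes, 1 was called between the constructs, against 0.987% of all genes. In 13 of the 17 the T286A minus wild-type difference was positive, against 9123 of 18231 genes and 4816 of 9116 genes at or above the median level. In 7 every T286A array lay above every wild-type array, against 9.94% of all genes and 14.1% of genes at or above the median level. GAPDH, glyceraldehyde phosphate dehydrogenase, had 14.14, 14.09 and 14.11 in T286A arrays, 14.11, 14.13 and 14.14 in wild-type arrays and 14.13 and 14.11 in empty vector arrays. All groups overlapped, and T286A minus wild-type was -0.01 (95% interval -0.14 to 0.11). ALDOA, the widely expressed aldolase, had 12.89, 12.88 and 12.91 in T286A arrays, 12.84, 12.85 and 12.97 in wild-type arrays, and 12.89 and 12.88 in empty vector arrays. Its T286A minus wild-type difference was 0.01 ± 0.061 (95% interval -0.13 to 0.15, adjusted p = 0.965).

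ALDOC, the aldolase isoform best known from brain, was the exception. It had 9.99, 9.86 and 9.90 in T286A arrays, 8.71, 8.82 and 8.90 in wild-type arrays, and 9.90 and 10.06 in empty vector arrays. Every wild-type array lay below every other array, and T286A and empty vector arrays overlapped. T286A was higher than wild-type by 1.11 ± 0.077 (2.16-fold, adjusted p = 0.000665). Wild-type was lower than empty vector, at -1.17 ± 0.086 (2.25-fold lower, adjusted p = 0.000999), and T286A minus empty vector was -0.06 ± 0.086 (95% interval -0.26 to 0.13, adjusted p = 0.852). All 5 ALDOC probe sets were called in both of the first comparisons, at 0.90 to 1.11 for T286A minus wild-type and -1.17 to -0.98 for wild-type minus empty vector. ALDOC was called in these 2 comparisons under all 16 alternative settings.

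Among the other 16 core enzymes, named so after ALDOC's values were seen and given no test, T286A minus wild-type ranged from -0.03 to 0.28 and wild-type minus empty vector from -0.19 to 0.01. In 6 of the 16 every T286A array lay above every wild-type array, against 9.94% of all genes and 14.1% of genes at or above the median level. HK2, an inducible hexokinase, had the largest difference of these. It had 8.76, 8.91 and 8.94 in T286A arrays, 8.64, 8.40 and 8.74 in wild-type arrays, and 8.58 and 8.92 in empty vector arrays, and T286A minus wild-type was 0.28 ± 0.118 (adjusted p = 0.357). Its empty vector arrays overlapped both constructs.

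The neuronal enolase ENO2 had 8.96, 9.13 and 8.98 in T286A arrays, 8.60, 8.95 and 8.83 in wild-type arrays, and 8.93 and 8.97 in empty vector arrays. T286A minus wild-type was 0.23 ± 0.0976 (adjusted p = 0.359). LDHA, the lactate dehydrogenase subunit that HIF is known to raise, had 13.81, 13.77 and 13.80 in T286A arrays, 13.70, 13.69 and 13.59 in wild-type arrays, and 13.65 and 13.70 in empty vector arrays. The T286A arrays of LDHA lay above all others by a small margin, at 0.13 ± 0.0592 over wild-type (adjusted p = 0.387).

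In PFKM, the muscle-type phosphofructokinase, both constructs lay below the empty vector. It had 9.28, 9.38 and 9.35 in T286A arrays, 9.30, 9.38 and 9.41 in wild-type arrays, and 9.55 in each empty vector array. T286A minus empty vector was -0.22 ± 0.0684 (adjusted p = 0.239) and wild-type minus empty vector -0.19 ± 0.0684 (adjusted p = 0.27), not called. HK1 also lay below both empty vector arrays in all 6 construct arrays, by -0.10 with T286A and -0.17 with wild-type. GPI, PFKL, PFKP, TPI1, PGK1, PGAM1, ENO1, PKM and LDHB cover the remaining steps. By the probe sets used, their T286A minus wild-type differences ran from -0.01 to 0.13, with adjusted p of 0.46 and above. All 5 PKM probe sets were positive in that comparison, at 0.13 to 0.55. The largest PKM differences came from probe sets with means of 6.99 and 6.92. Of the PKM probe sets 0 were called, with a lowest limma adjusted p, over probe sets, of 0.0712.

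Among the 4 flux regulators PFKFB4 was called between the constructs and the other 3 were not, with 0.987% of all genes called. PFKFB4 and PFKFB3 are bifunctional enzymes that make and remove the sugar phosphate that activates phosphofructokinase. PFKFB4 had 7.20, 7.20 and 7.13 in T286A arrays, 5.85, 6.12 and 5.96 in wild-type arrays, and 6.76 and 6.80 in empty vector arrays. The 3 groups did not overlap, with the empty vector between the constructs. T286A was higher than wild-type by 1.20 ± 0.0772 (2.30-fold, adjusted p = 0.000539), the 12th largest absolute difference of all genes in that comparison. Wild-type was lower than empty vector, at -0.81 ± 0.0864 (1.75-fold lower, adjusted p = 0.00498), and T286A minus empty vector was 0.40 ± 0.0864 (adjusted p = 0.095), not called.

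The other 3 PFKFB4 probe sets were dim, with means of 4.84 to 5.03, and differed by 0.38 to 0.59 between T286A and wild-type arrays, positive but not called. With the mean over all 4 probe sets the wild-type minus empty vector difference of PFKFB4 was -0.32 (adjusted p = 0.105), and its call was also lost without either empty vector array (adjusted p = 0.0554 and 0.0775). T286A minus wild-type kept its call under all 16 alternatives, at 0.67 to 1.27. PFKFB3, with 8.15, 8.21 and 8.27 in T286A arrays, 8.15, 8.18 and 8.06 in wild-type arrays, and 8.27 and 8.37 in empty vector arrays, differed by 0.08 ± 0.0661 between T286A and wild-type (95% interval -0.08 to 0.23, adjusted p = 0.662).

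PDK1 and PDK3 are kinases that switch off pyruvate dehydrogenase and so keep pyruvate out of the mitochondrial cycle. PDK1 had 8.40, 8.28 and 8.15 in T286A arrays, 8.01, 7.95 and 8.01 in wild-type arrays, and 8.22 and 8.29 in empty vector arrays. The wild-type arrays were the lowest, at 0.29 ± 0.0753 for T286A minus wild-type (adjusted p = 0.153) and -0.27 ± 0.0842 for wild-type minus empty vector (adjusted p = 0.204). PDK3 had 8.54, 8.55 and 8.63 in T286A arrays, 8.55, 8.38 and 8.55 in wild-type arrays, and 8.42 and 8.46 in empty vector arrays, and the constructs overlapped (0.08 ± 0.0699, adjusted p = 0.661).

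**Figure D2:**
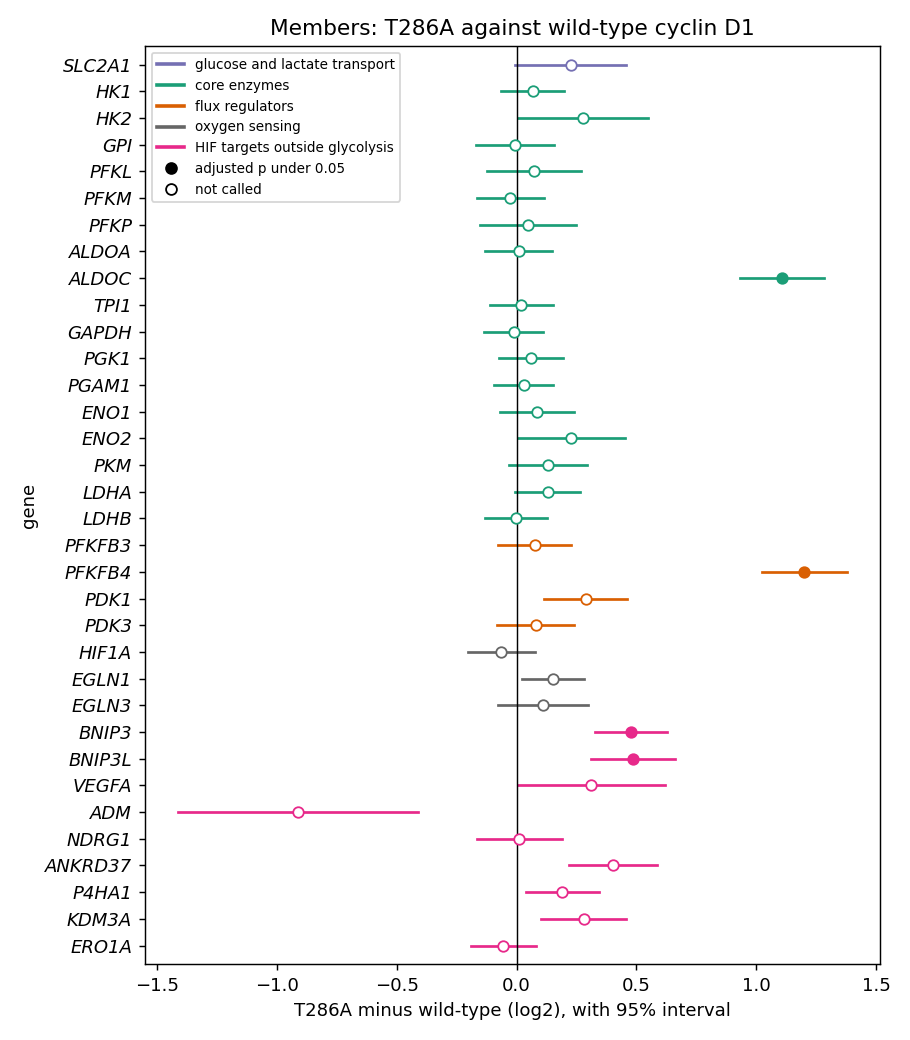
T286A minus wild-type difference (log2, x axis) with its 95% interval for each of the 34 measured members (y axis), coloured by role; filled points were called. PFKFB4 at 1.20, ALDOC at 1.11, BNIP3L at 0.49 and BNIP3 at 0.48 are filled, and ADM at -0.91 has the widest interval.

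Transcripts of the 3 oxygen-sensing genes were not called in any comparison. Of all genes, 1.74% were called in wild-type against empty vector, 0.532% in T286A against empty vector and 0.987% in T286A against wild-type. With 3 genes, 0 calls can be had at such shares. HIF1A had 12.11, 12.13 and 12.10 in T286A arrays, 12.19, 12.25 and 12.10 in wild-type arrays, and 12.10 and 12.12 in empty vector arrays. The T286A arrays differed from the wild-type arrays by -0.06 ± 0.0608 (95% interval -0.20 to 0.07, adjusted p = 0.684) and wild-type minus empty vector 0.07 ± 0.068 (adjusted p = 0.753). HIF1A is controlled mainly as a protein, which the arrays do not measure.

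EGLN1, the main oxygen-dependent prolyl hydroxylase and itself a HIF target, had 9.89, 9.92 and 9.95 in T286A arrays, 9.78, 9.73 and 9.79 in wild-type arrays, and 9.98 and 9.91 in empty vector arrays. Its wild-type arrays lay below all others without overlap, at 0.15 ± 0.057 for T286A minus wild-type (adjusted p = 0.302) and -0.18 ± 0.0637 for wild-type minus empty vector (adjusted p = 0.268). The 3 probe sets of EGLN1 disagreed between the constructs, at -0.18 to 0.15 for T286A minus wild-type. EGLN3 lay between 4.73 and 5.04 in all arrays, below the median level of genes, where background compresses differences.

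HIF targets outside glycolysis held 2 of the called members. Their median T286A minus wild-type difference was 0.28, against 0.06 for the core enzymes, and 2 of 9 were called higher against 1 of 17, with 0.598% of all genes called higher. In 5 of the 9 every T286A array lay above every wild-type array, against 7 of the 17 core enzymes and 9.94% of all genes. Among genes at or above the median level, which 7 of the 9 reached, the share was 14.1%. The difference between the 2 lists was not tested. In wild-type against empty vector the medians were -0.24 for the HIF targets and -0.05 for the core enzymes, with 1 of each called lower and 1.14% of all genes called lower.

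BNIP3 and BNIP3L are related proteins of the outer mitochondrial membrane that mark mitochondria for removal by autophagy. BNIP3 had 10.88, 10.83 and 10.83 in T286A arrays, 10.44, 10.39 and 10.27 in wild-type arrays, and 10.87 and 10.93 in empty vector arrays. All wild-type arrays lay below all others, and T286A and empty vector overlapped. T286A was higher than wild-type by 0.48 ± 0.0657 (1.39-fold, adjusted p = 0.0158), wild-type was lower than empty vector at -0.53 ± 0.0734 (1.45-fold lower, adjusted p = 0.0139), and T286A minus empty vector was -0.05 ± 0.0734 (adjusted p = 0.852).

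BNIP3L had 9.55, 9.73 and 9.54 in T286A arrays, 9.17, 9.11 and 9.09 in wild-type arrays, and 9.29 and 9.43 in empty vector arrays. The groups did not overlap, with the empty vector between the constructs as for PFKFB4. T286A was higher than wild-type by 0.49 ± 0.0759 (1.40-fold, adjusted p = 0.0262), T286A minus empty vector was 0.24 ± 0.0849 (adjusted p = 0.286), and wild-type minus empty vector was -0.24 ± 0.0849 (adjusted p = 0.256). All 6 BNIP3L probe sets were positive, at 0.35 to 0.49. The calls of BNIP3 and BNIP3L between the constructs were both lost without any 1 T286A array (BNIP3 adjusted p = 0.0637 to 0.0733, BNIP3L adjusted p = 0.0707 to 0.0889), and that of BNIP3L also without any 1 wild-type array (adjusted p = 0.0762 to 0.0989). The wild-type against empty vector call of BNIP3 was lost without either empty vector array (adjusted p = 0.102 and 0.136).

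**Figure D3:**
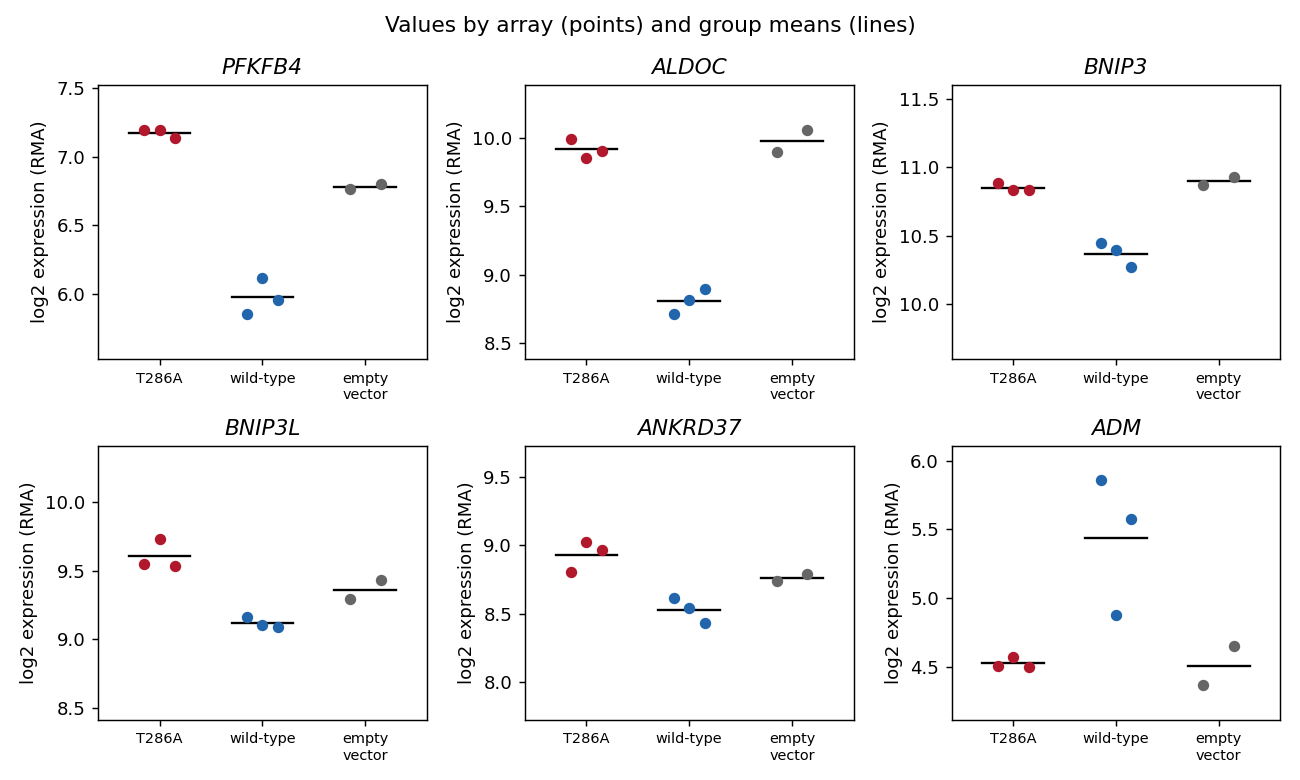
Log2 expression (y axis, each panel spanning 2 units) of 6 members in T286A, wild-type and empty vector arrays; points are arrays and lines are group means. Wild-type points lie below the others for PFKFB4, ALDOC, BNIP3, BNIP3L and ANKRD37, and above them for ADM.

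**Figure D4:**
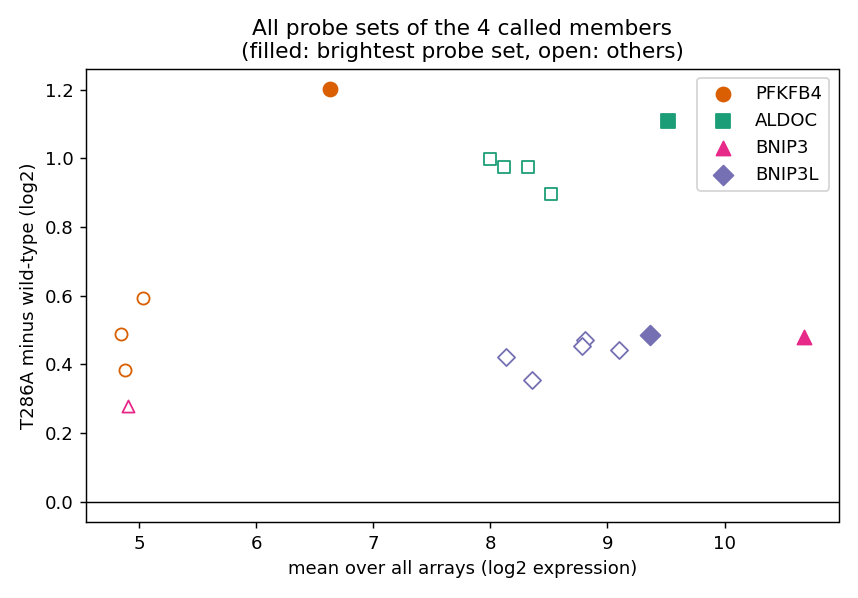
T286A minus wild-type difference (log2, y axis) of every probe set of the 4 called members against its mean over all arrays (x axis); the filled point is the probe set used. All probe sets lie above 0, and the dim ones of PFKFB4 and BNIP3 lie lower than the bright one.

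Of the HIF targets not called, ANKRD37, KDM3A, P4HA1 and VEGFA had their lowest mean in wild-type cells. ANKRD37, an ankyrin repeat protein, had 8.80, 9.02 and 8.97 in T286A arrays, 8.62, 8.54 and 8.43 in wild-type arrays, and 8.74 and 8.79 in empty vector arrays, a T286A minus wild-type difference of 0.40 ± 0.0801 (adjusted p = 0.0725). KDM3A, a histone demethylase, had 9.09, 9.28 and 9.10 in T286A arrays, 8.92, 8.90 and 8.81 in wild-type arrays, and 9.14 and 9.00 in empty vector arrays, a difference of 0.28 ± 0.0769 (adjusted p = 0.174). In both genes, by the probe set used, the wild-type arrays lay below every other array. The other ANKRD37 probe set, dim at a mean of 4.49, had -0.10 for T286A minus wild-type. The other KDM3A probe sets had 0.18 and 0.19 for T286A minus wild-type, but 0.03 each for wild-type minus empty vector.

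P4HA1, the catalytic subunit of a collagen prolyl hydroxylase, had 9.01, 9.16 and 9.13 in T286A arrays, 8.86, 8.92 and 8.96 in wild-type arrays, and 9.22 and 9.28 in empty vector arrays. Here all construct arrays lay below the empty vector, at -0.15 ± 0.0741 for T286A (adjusted p = 0.484) and -0.34 ± 0.0741 for wild-type (adjusted p = 0.0702). VEGFA, the angiogenic growth factor, had 9.90, 10.17 and 9.96 in T286A arrays, 9.69, 9.97 and 9.43 in wild-type arrays, and 9.98 and 9.91 in empty vector arrays. Its groups overlapped (T286A minus wild-type 0.31 ± 0.134, adjusted p = 0.359), although all 10 of its probe sets had positive differences.

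ADM, the vasodilator peptide adrenomedullin, went the other way. It had 4.51, 4.57 and 4.50 in T286A arrays, 5.86, 4.87 and 5.57 in wild-type arrays, and 4.37 and 4.65 in empty vector arrays. Every wild-type array lay above every other array, but all lay below the median level of genes and wild-type replicate 2 was the lowest of its group. T286A minus wild-type was -0.91 ± 0.218 (adjusted p = 0.124) and wild-type minus empty vector 0.93 ± 0.244 (adjusted p = 0.125). Without wild-type replicate 2 these were -1.19 (adjusted p = 0.00873) and 1.21 (adjusted p = 0.0106). Its 3 probe sets disagreed, at -0.91 to 0.03 for T286A minus wild-type. ERO1A, an oxidase of the endoplasmic reticulum, lay between 9.96 and 10.12 in all arrays, and the stress gene NDRG1 between 4.46 and 4.69. Neither was called in any comparison.

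Other genes of the same pathways were read from 3 further lists. Among 37 measured further genes of glycolysis and pyruvate use, 0 were called by limma in any comparison. Of all genes, 1.74% were called in wild-type against empty vector, 0.532% in T286A against empty vector and 0.987% in T286A against wild-type. At an unadjusted p under 0.05, T286A against wild-type had 1 of the 37 higher and 2 lower (median -0.04). These were 2.70% and 5.41% of the list, against 7.16% and 6.46% of all genes. Among 14 further oxygen-sensing genes, such as EPAS1, ARNT and VHL, 0 were called and 0 had an unadjusted p under 0.05 between the constructs (median 0.04). The shares of all genes were 0.987% called, and 7.16% higher and 6.46% lower at that unadjusted p. A list this short can hold 0 at such shares. Of 32 further HIF targets, T286A against wild-type had 2 called higher (AK4 and DDIT4) and 1 lower (RORA), against 0.598% and 0.389% of all genes, with a median of 0.10 and 27 positive differences. Wild-type against empty vector had 3 called lower (AK4, DDIT4 and PLOD1), against 1.14% of all genes, with a median of -0.09, and T286A against empty vector had 0 called, with 2 higher and 3 lower at an unadjusted p under 0.05, against 5.95% and 6.15% of all genes.

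AK4, a mitochondrial adenylate kinase, had 10.39, 10.55 and 10.51 in T286A arrays, 9.55, 9.58 and 9.53 in wild-type arrays, and 10.28 and 10.29 in empty vector arrays. The groups did not overlap. T286A was higher than wild-type by 0.93 ± 0.0635 (1.90-fold, adjusted p = 0.000665), wild-type was lower than empty vector at -0.73 ± 0.071 (adjusted p = 0.00347), and T286A minus empty vector was 0.20 ± 0.071 (adjusted p = 0.302). The call between the constructs held under every alternative run, and that against the empty vector was lost without empty vector replicate 2 (adjusted p = 0.0638).

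DDIT4, a stress-induced inhibitor of mTOR signalling, had 10.81, 10.86 and 10.91 in T286A arrays, 10.46, 10.37 and 10.47 in wild-type arrays, and 10.98 and 11.02 in empty vector arrays. Wild-type was lower than empty vector at -0.57 ± 0.0692 (adjusted p = 0.0095), and T286A was higher than wild-type by 0.42 ± 0.0619 (adjusted p = 0.0198), with T286A between the other groups. The call between the constructs was lost without any 1 array of either (adjusted p = 0.0575 to 0.0923), and that against the empty vector without either empty vector array (adjusted p = 0.0835 and 0.109) or with the 2 compared groups alone (adjusted p = 0.0577).

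PLOD1, a procollagen lysyl hydroxylase, had 8.67, 8.56 and 8.68 in T286A arrays, 8.45, 8.33 and 8.46 in wild-type arrays, and 8.90 and 8.89 in empty vector arrays, and wild-type was lower than empty vector at -0.48 ± 0.0742 (adjusted p = 0.0213). The PLOD1 call was lost without wild-type replicate 1 (adjusted p = 0.0558) or either empty vector array (adjusted p = 0.136 and 0.164), and with the 2 compared groups alone (adjusted p = 0.0839). RORA, a nuclear receptor, ran the opposite way, with 8.96, 8.93 and 8.99 in T286A arrays, 9.28, 9.54 and 9.41 in wild-type arrays, and 9.17 and 9.21 in empty vector arrays. T286A was lower than wild-type at -0.45 ± 0.0755 (adjusted p = 0.0377). With the mean over its 3 probe sets, which lay at -0.45 to -0.01, RORA was not called (adjusted p = 0.289), and its call held without wild-type replicate 1 (adjusted p = 0.0405) but not without any other single array (adjusted p = 0.0735 to 0.142) or with the 2 compared groups alone (adjusted p = 0.0798).

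**Figure D5:**
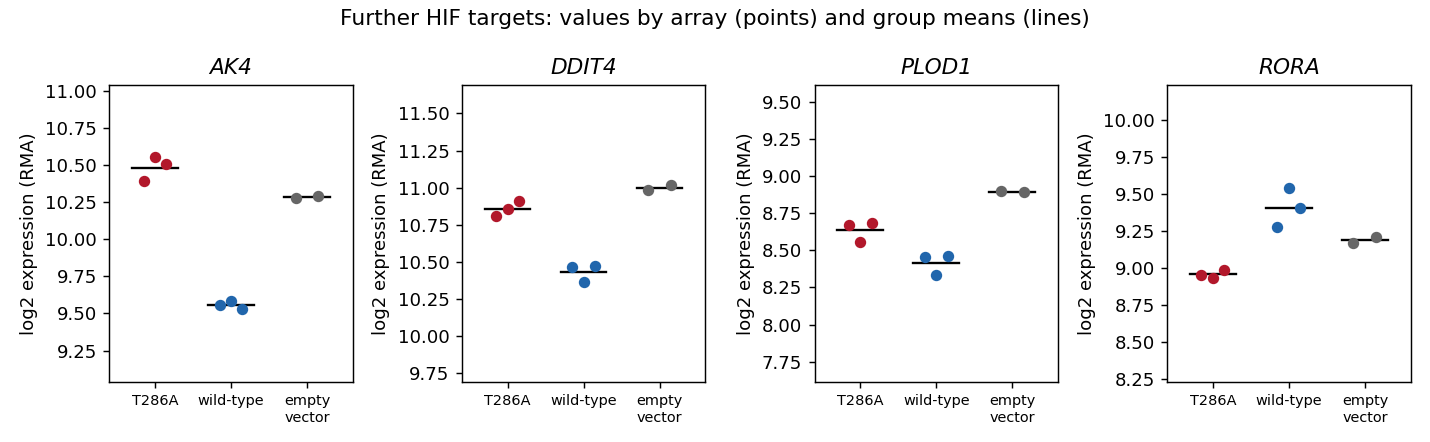
Log2 expression (y axis, each panel spanning 2 units) of the 4 called genes among the further HIF targets in T286A, wild-type and empty vector arrays; points are arrays and lines are group means. The wild-type points are the lowest for AK4, DDIT4 and PLOD1 and the highest for RORA.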

How the data were processed

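RNA of 8 JVM13 samples was measured on an expression array, 1 array a sample. Robust multi-array averaging by the authors gave the deposited log2 values, with R 3.5.0 named in the submitters' processing notes. They carry no detection call. The platform's annotation paired 45226 of 48864 probe sets with 1 gene, 1325 with several and 2313 with none. Many glycolytic genes have near copies or pseudogenes, which a probe set may also read. Groups and replicate numbers came from the sample titles.

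Each of 18231 genes was represented by its brightest probe set, by the mean of all arrays. A single limma model (version 3.58.1 in R 4.3.3, default eBayes, no intensity filter) held a mean for each group, with 5 residual and 3.27 prior degrees of freedom, and p-values were adjusted by Benjamini-Hochberg over all genes. The fit was also run on simulated data with independent normal noise and planted differences, which checks the code and not the assumptions for these arrays. Members and lists were chosen with earlier results of these data known, so no list was tested. Values in every array are given for called members, for the brightest member and the member with the largest difference of each role, for called genes of the further lists, and for other members added after their values were seen. Deviations of same-numbered samples from their group means had correlations between -0.0909 and 0.119. Correlations of differently numbered samples were not computed for comparison. In groups this small, deviations from the group mean are not independent, so these values cannot decide whether the numbers pair samples. The number of arrays limits the precision. Promoter sequences are from RefSeq.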

Additional observations from a re-analysis of the deposited data

Results flagged for a closer look

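Differences between T286A and wild-type cyclin D1 that passed the test of the difference itself were seen in 4 members and in 3 further HIF targets. The T286A minus wild-type difference was 1.11 for ALDOC, 1.20 for PFKFB4, 0.48 for BNIP3 and 0.49 for BNIP3L. Among the further HIF targets it was 0.93 for AK4, 0.42 for DDIT4 and -0.45 for RORA. In each of the 7 the 3 arrays of one construct lay wholly on one side of the 3 arrays of the other. The 7 were picked by a test on these same arrays, so this adds no support. Of all genes, 9.94% had every T286A array above every wild-type array and 9.82% had every one below. With 2 or 3 arrays a group, no gene was tested for a single outlying array.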

How the results depend on the processing

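The calls of ALDOC and PFKFB4 between T286A and wild-type, and of ALDOC between wild-type and empty vector, held under all 16 alternatives, while BNIP3, BNIP3L and ADM depended on them. The cause of a lost or gained call was not tested, except that fewer arrays or fewer genes tested by construction change the threshold. With genes at or above the median level only, 629 genes were called in wild-type against empty vector (317 without that filter), 527 in T286A against empty vector (97) and 381 in T286A against wild-type (180), and 1 member, PFKFB4, was called in T286A against empty vector (adjusted p = 0.0286). Array weights called 317 genes in T286A against empty vector and the same 1 member (adjusted p = 0.0456). They also called ADM, at 1.06 in wild-type against empty vector and -1.05 in T286A against wild-type. With trend and robust settings the counts were 747, 626 and 602 genes in the same order, with 5 members in wild-type against empty vector and 8 in T286A against wild-type. Using only the 2 compared groups left 68 genes in wild-type against empty vector and 4 in T286A against empty vector, and BNIP3 lost its wild-type against empty vector call (adjusted p = 0.0788). The mean over all probe sets of a gene called 190 genes in T286A against empty vector, and BNIP3 lost both calls (-0.32 in wild-type against empty vector, adjusted p = 0.213, and 0.38 in T286A against wild-type, adjusted p = 0.12). Centring on 16 housekeeping genes moved the wild-type against empty vector calls to 134 higher and 163 lower, against 110 and 207 without it.

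With the replicate number as a block, a pairing that the labels do not explain, 71, 3 and 86 genes were called in the same order. The members called in T286A against wild-type were then 2 (ALDOC and PFKFB4), and BNIP3 was -0.50 in wild-type against empty vector (adjusted p = 0.0752). Among the further HIF targets the block also ended the calls of DDIT4 (adjusted p = 0.0515 in wild-type against empty vector and 0.0786 in T286A against wild-type), PLOD1 (adjusted p = 0.0679) and RORA (adjusted p = 0.108). Leaving out 1 array at a time gave 22 to 197, 1 to 87 and 70 to 128 genes, and 1 to 4, 0 and 2 to 4 members. The lowest gene counts came without empty vector replicate 2 (22), without empty vector replicate 1 (1) and without T286A replicate 2 (70), and the count of T286A against empty vector was at most 3 without any T286A or empty vector array. Without either empty vector array ALDOC was the 1 member still called in wild-type against empty vector, and the lone empty vector array is then assumed to vary like the other groups.

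The 10 members with values in every array under the naming rule were recomputed under each alternative, and among these the differences that turned sign were uncalled. In T286A against empty vector, HIF1A was -0.0013 with the mean over probe sets, -9e-04 with array weights and -0.0117 to 0.0132 without single arrays. BNIP3 was 0.0598 with the mean over probe sets. ADM was -0.0162 with that mean, -0.0118 with the block and -0.1258 to 0.1582 without single arrays. GAPDH was 0.0131 after housekeeping centring and -0.019 to 0.0053 without single arrays, and SLC2A1 was -0.0038 with the block and -0.0437 to 0.1561 without single arrays. EGLN1 ranged from -0.056 to 0.0078 and ALDOC from -0.1428 to 0.0174. In wild-type against empty vector GAPDH ranged from -0.004 to 0.0148.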
